A study of Mus musculus with 24 samples.

Results

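The 10 genes described here mark the progenitor cells and fibroblasts of fat tissue: Pdgfra, Cd34, Ly6a, Dpp4, Pi16, Dlk1, Zfp423, F3, Fap and Mxra8. They were chosen by symbol from the 24421 gene symbols counted in each library, and all 10 were found and tested in every comparison. The list was drawn up with earlier results of these data known, among which Mxra8 had been singled out for its low level in Y665H females against WT females. That difference, and every other one that rests on the Y665H female libraries, is therefore given for Mxra8 as a description.

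Total RNA from adipose tissue of C57BL/6 mice, 2 months old, was sequenced in 24 libraries. Mice were either wild type (WT) or had a point mutation at Y665, a tyrosine of STAT5B, the transcription factor that growth hormone and cytokine receptors activate. Y665F puts phenylalanine and Y665H puts histidine in that place. The 6 groups were WT males, Y665F males, Y665H males, WT females, Y665F females and Y665H females, with 4 libraries each. No fat depot, cell fraction or treatment is named, and nothing says whether the 4 libraries of a group came from separate animals. The p-values measure the spread between these libraries, which may in part be technical.

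Adipocytes arise from stromal progenitors that carry the receptor PDGFRA and the surface proteins CD34 and SCA-1, the product of Ly6a. Single-cell studies divide these progenitors into DPP4+ interstitial cells, which also make Pi16, committed preadipocytes, and CD142+ cells, where CD142 is the product of F3. Dlk1 encodes preadipocyte factor 1, which holds back differentiation, and Zfp423 encodes a zinc finger protein of preadipocytes that promotes adipogenic commitment. Fap encodes a membrane prolyl peptidase of the same family as DPP4, and Mxra8 a matrix remodelling associated membrane protein. In these whole-tissue libraries, fewer cells of a type and less RNA per cell cannot be told apart.

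Depth was 20982647 to 41345247 gene counts a library, and the lowest count of any member in any library was 26, for Dlk1. Levels are CPM, the counts scaled to 1000000 gene counts a library. All 12 adipocyte markers were detected in every library, at summed levels of 8253 to 29094 CPM, and so were all 24 pan-fibroblast genes. Libraries differed in RNA of neighbouring tissues. The 10 epididymis genes summed to 0.0251 to 12895 CPM in males and to at most 0.721 CPM in females, where at least 5 of the 10 were at 0 in each library. WT male 2 held the highest epididymis sum and the lowest adipocyte sum. The 15 skeletal muscle genes summed to 107 to 1207 CPM in WT females, 48.0 to 213 in Y665F females, 35.2 to 2138 in Y665H females and 34.7 to 289.6 in males. Y665F female 3 stood apart in smooth muscle and pericyte (mural) genes, at 8813 CPM against 716 to 2940 in the other females.

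The members differed widely in level. Per kilobase of exon, the mean over the 24 libraries was highest for Ly6a at 53.0 CPM per kb, then Mxra8 at 34.6, Cd34 at 19.5, Zfp423 at 15.7, F3 at 15.3, Pdgfra at 14.6, Pi16 at 12.9 and Dpp4 at 9.10. Fap, at 1.47, and Dlk1, at 0.412 CPM per kb, were far below them. The neighbours Zfp423, F3, Pdgfra and Pi16 in this order overlapped across libraries. The ratio of the highest to the lowest library ran from 1.84 for Ly6a to 5.26 for Dlk1. The position of Ly6a rests partly on how reads of the other Ly6 genes, which have similar sequences, were assigned, and the counting does not say this.

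**Figure D1:**
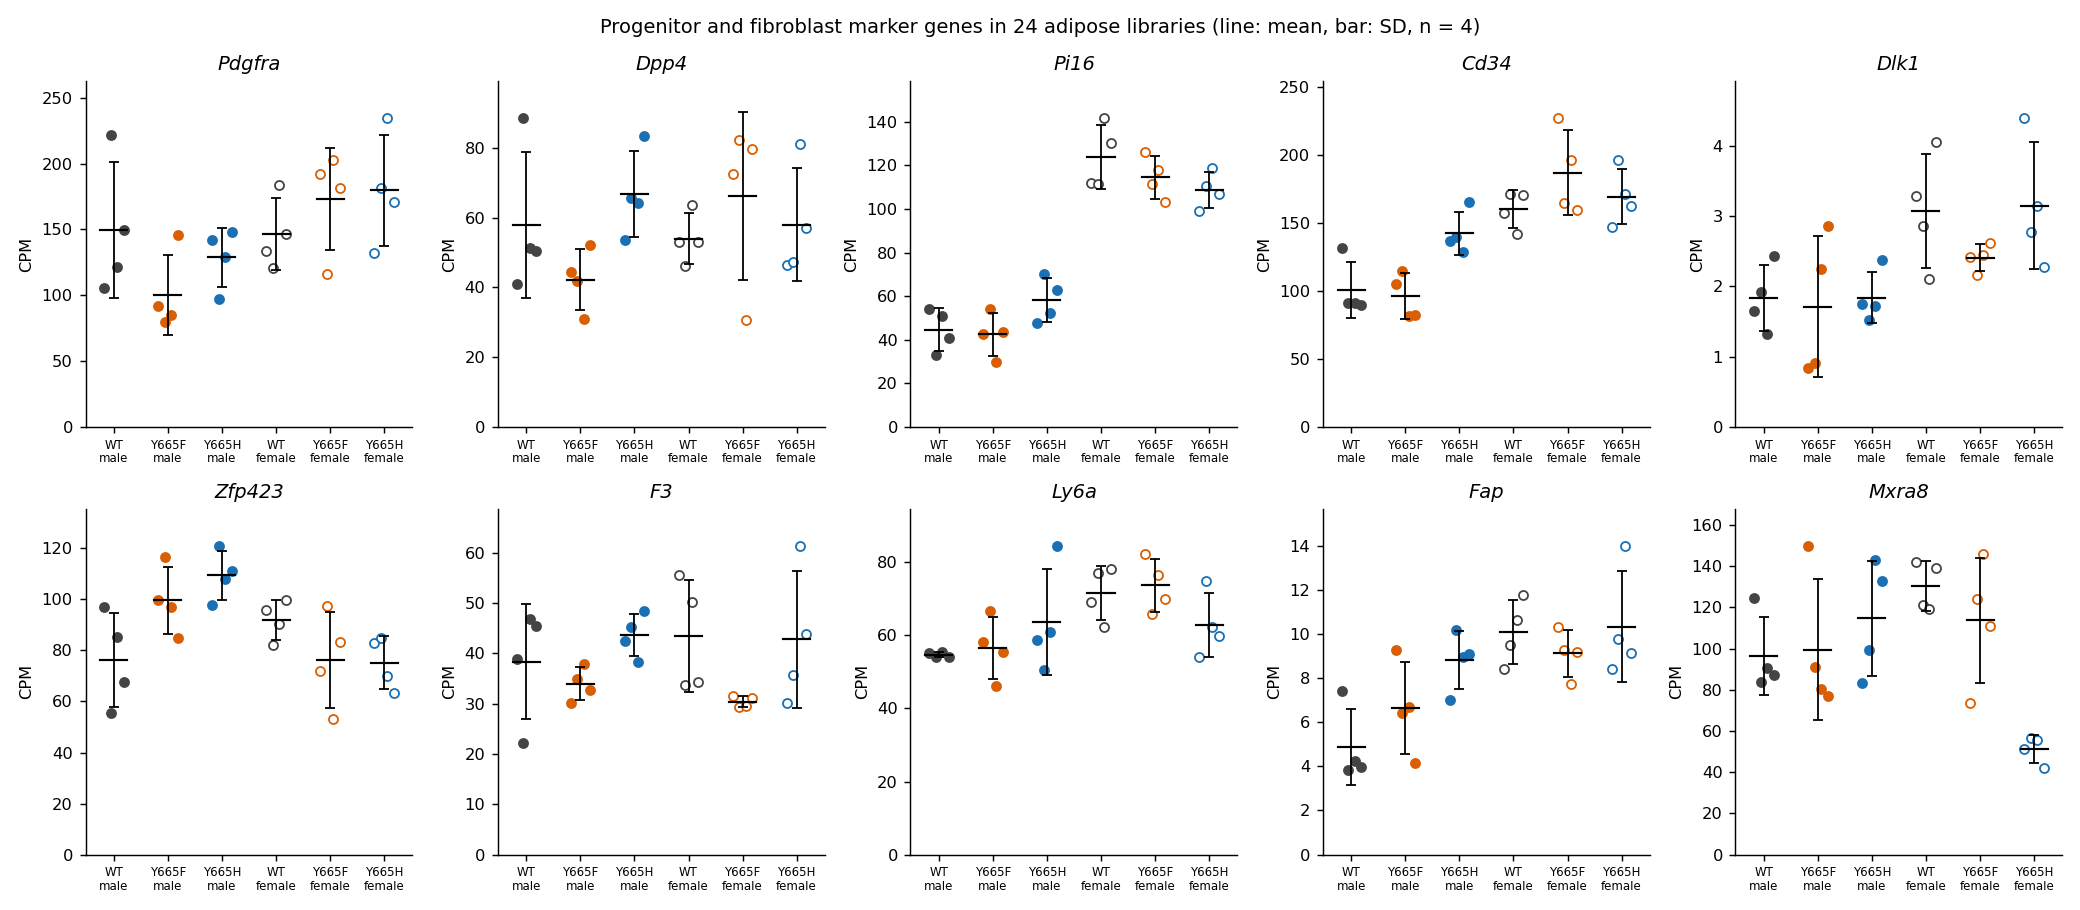
CPM of the 10 members in each of the 24 libraries, by group, with filled points for males, open points for females, and the mean and SD of 4 libraries as a line and bar. Pi16 was lower in each of the 12 male libraries than in each of the 12 female libraries, and Mxra8 was lowest in the 4 Y665H female libraries.

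More members differed between male and female libraries than between genotypes. Nothing says that both sexes gave the same fat depot, and epididymis RNA was seen in males only. Sex and fat depot or dissection therefore cannot be told apart in any comparison of males with females. Pi16, which encodes peptidase inhibitor 16, was lower in males in all 3 genotypes, and so was Cd34, a sialomucin of progenitor and endothelial cells. Each fold change below is a log2 value of males against females, from edgeR's quasi-likelihood test with Benjamini-Hochberg adjustment over all genes tested, and genes are termed called where that adjusted p was under 0.05. In WT, 4 of the 10 members were called, all lower in males, against 13.1% of all tested genes called in either direction. In Y665F 3 members were called, all lower in males, against 15.1% of all genes, and in Y665H 4 of the 9 members other than Mxra8 were called, all lower, against 28.8%. The comparisons within Y665F and Y665H were added after the data had been seen.

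Pi16 lies at chr17:29317680-29330593 on the plus strand of mm10 (GENCODE M21). In WT males it was at 54.3, 32.8, 50.8 and 40.7 CPM, in Y665F males at 42.8, 53.9, 29.5 and 43.4 and in Y665H males at 47.5, 70.0, 52.1 and 62.7. In WT females it was at 112, 111, 142 and 130.5 CPM, in Y665F females at 126, 111, 118 and 103 and in Y665H females at 99.0, 111, 119 and 107. The highest male library, at 70.0 CPM, thus stood below the lowest female library, at 99.0 CPM, whatever the genotype. The log2 fold change was -1.61 (SE 0.19, edgeR adjusted p = 0.00419) in WT, -1.40 (SE 0.17, edgeR adjusted p = 0.00501) in Y665F and -1.05 (SE 0.14, edgeR adjusted p = 0.00101) in Y665H. The female mean was 2.77 times the male mean in WT, 2.70 times in Y665F and 1.87 times in Y665H.

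Cd34 lies at chr1:194938819-194961279 on the plus strand. In males it was at 132, 90.9, 90.7 and 89.3 CPM in WT, 105, 115, 81.4 and 82.4 in Y665F and 136, 139.6, 128 and 165 in Y665H. In females it was at 157, 171, 142 and 170.4 CPM in WT, 227, 164, 196 and 159 in Y665F and 147, 196, 171 and 163 in Y665H. The sexes did not overlap in WT or Y665F and overlapped in Y665H, where 1 male library at 165 CPM reached the female range. The log2 fold change was -0.81 (SE 0.17, edgeR adjusted p = 0.0243) in WT, -0.93 (SE 0.17, edgeR adjusted p = 0.0138) in Y665F and -0.40 (SE 0.10, edgeR adjusted p = 0.0180) in Y665H.

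Because Pi16 and Cd34 were lower in males in all 3 genotypes, the 250 bases before their start sites are shown, from RefSeq on GRCm38.p6, 5′ to 3′ on the plus strand, with any CCAAT, on either strand, in capitals. For Pi16 the RefSeq start lies inside the GENCODE gene span given above. The first is chr17:29318632-29318881 and the second chr1:194938571-194938820.
Pi16: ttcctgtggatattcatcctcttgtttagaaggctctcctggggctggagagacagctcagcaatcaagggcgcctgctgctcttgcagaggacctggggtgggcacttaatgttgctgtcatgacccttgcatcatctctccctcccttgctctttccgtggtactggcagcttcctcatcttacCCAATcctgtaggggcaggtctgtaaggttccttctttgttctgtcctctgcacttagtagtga
Cd34: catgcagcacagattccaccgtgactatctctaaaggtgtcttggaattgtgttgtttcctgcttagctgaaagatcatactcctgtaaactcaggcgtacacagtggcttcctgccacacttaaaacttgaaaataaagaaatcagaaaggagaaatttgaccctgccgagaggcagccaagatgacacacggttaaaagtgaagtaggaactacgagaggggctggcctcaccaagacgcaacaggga
Both strands were searched for TTCNNNGAA, the palindrome that STAT5 is known to bind, for the form with a longer spacer TTCNNNNGAA, for the TATA box written as TATAAA, for CCAAT, which the factor NF-Y binds, and for the Sp1-type motif GGGCGG. Neither window held either STAT-type sequence, which says only that these letters are not in this stretch. The Pi16 window held 1 CCAAT, at position -64 from the start site, and 33.8% of the 32851 RefSeq promoter windows of the same length held at least 1. Of the 8 members with a window in the RefSeq table, which lacked Ly6a and Fap, none held TTCNNNGAA, a sequence found in 7.02% of all windows.

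The other surface markers followed sex less evenly. Ly6a was at 55.2, 54.2, 55.5 and 54.0 CPM in WT males and 69.1, 77.0, 62.2 and 78.1 in WT females, with no overlap, and its log2 fold change was -0.54 (SE 0.10, edgeR adjusted p = 0.0203). In Y665F it was at 58.2, 66.7, 46.0 and 55.5 CPM in males and 82.3, 65.8, 76.4 and 70.0 in females, a log2 difference of -0.35 (SE 0.13) that was not called (edgeR adjusted p = 0.0929). In Y665H the sexes overlapped fully, at 58.7, 50.4, 61.0 and 84.5 CPM in males and 54.1, 74.9, 62.2 and 59.9 in females. Whether the sex difference of Ly6a depends on genotype is covered by the interaction tests further on, where it was not called.

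Pdgfra, the receptor that defines the whole progenitor compartment, was called in both mutants and not in WT. Whether that depends on genotype is covered by the interaction tests further on. There Pdgfra was not called, at edgeR adjusted p-values of 0.263 for Y665F and 0.358 for Y665H. In WT it was at 106, 222, 122 and 149.5 CPM in males, with WT male 2 the highest, and 133, 121, 184 and 147 in females. In Y665F it was at 91.5, 79.4, 85.2 and 146 CPM in males and 192, 116, 203 and 181 in females, and in Y665H at 142, 97.5, 129 and 148 in males and 132, 181, 235 and 171 in females. The ranges of the sexes overlapped in every genotype. The log2 fold change was -0.77 (SE 0.21, edgeR adjusted p = 0.0425) in Y665F and -0.63 (SE 0.16, edgeR adjusted p = 0.0163) in Y665H, beside -0.12 (SE 0.23, edgeR adjusted p = 0.748) in WT.

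Fap was at 7.43, 3.84, 4.26 and 3.96 CPM in WT males and 8.41, 9.49, 10.6 and 11.8 in WT females, a log2 difference of -1.18 (SE 0.27, edgeR adjusted p = 0.0306). In Y665F it was at 9.27, 6.43, 6.67 and 4.17 CPM in males and 10.3, 9.25, 7.73 and 9.17 in females, and in Y665H at 7.02, 10.2, 8.95 and 9.09 in males and 8.39, 9.77, 14.0 and 9.12 in females. The sexes did not overlap in WT and overlapped in both mutants, where Fap was not called. In the interaction tests further on, Fap was not called for either mutation (edgeR adjusted p = 0.254 for Y665F and 0.242 for Y665H). Dlk1 was at 1.64, 1.92, 1.32 and 2.43 CPM in WT males and 3.28, 2.85, 2.10 and 4.05 in WT females, a log2 difference of -0.90 (SE 0.27) that was not called (edgeR adjusted p = 0.0612). It was at 0.834, 0.904, 2.24 and 2.86 CPM in Y665F males and 2.42, 2.16, 2.44 and 2.61 in Y665F females. In Y665H it was at 1.75, 1.52, 1.72 and 2.37 CPM in males and 4.39, 2.77, 3.14 and 2.27 in females, a log2 difference of -0.94 (SE 0.26, edgeR adjusted p = 0.0241). Dlk1 was the least abundant member, so these levels rest on few reads.

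Zfp423 had a negative sex difference in WT and positive ones in the mutants, none of them called. In WT it was at 96.9, 55.4, 85.4 and 67.8 CPM in males and 95.8, 81.9, 90.3 and 99.8 in females, a log2 difference of -0.41. In Y665F it was at 99.9, 117, 97.0 and 85.0 CPM in males and 72.1, 97.5, 53.0 and 83.2 in females, a log2 difference of 0.41. In Y665H each of the 4 males, at 97.8, 121, 108 and 111 CPM, stood above each of the 4 females, at 82.9, 84.8, 70.2 and 63.2. That log2 difference was 0.39 (SE 0.14, edgeR adjusted p = 0.0618). 

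Dpp4, which encodes the membrane dipeptidyl peptidase that marks interstitial progenitors, was called between the sexes in no genotype. In WT it was at 40.9, 88.5, 51.4 and 50.5 CPM in males and 52.9, 46.1, 63.7 and 53.0 in females, a log2 difference of -0.051 (SE 0.23, edgeR adjusted p = 0.895). In Y665F females it was at 72.4, 82.1, 30.6 and 79.6 CPM, with female 3 far below the rest, and in Y665F males at 44.4, 41.7, 30.8 and 52.1, a log2 difference of -0.64 (SE 0.30, edgeR adjusted p = 0.176). In Y665H it was at 53.5, 65.7, 64.2 and 83.5 CPM in males and 46.4, 47.3, 81.2 and 57.1 in females, with full overlap. F3, which encodes tissue factor, was likewise not called, and its male libraries stood at 38.9, 22.2, 46.9 and 45.5 CPM in WT, 30.2, 35.0, 37.8 and 32.8 in Y665F and 42.5, 45.3, 38.4 and 48.3 in Y665H. Its log2 difference between the sexes was -0.33 in WT, 0.19 in Y665F and -0.12 in Y665H.

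**Figure D2:**
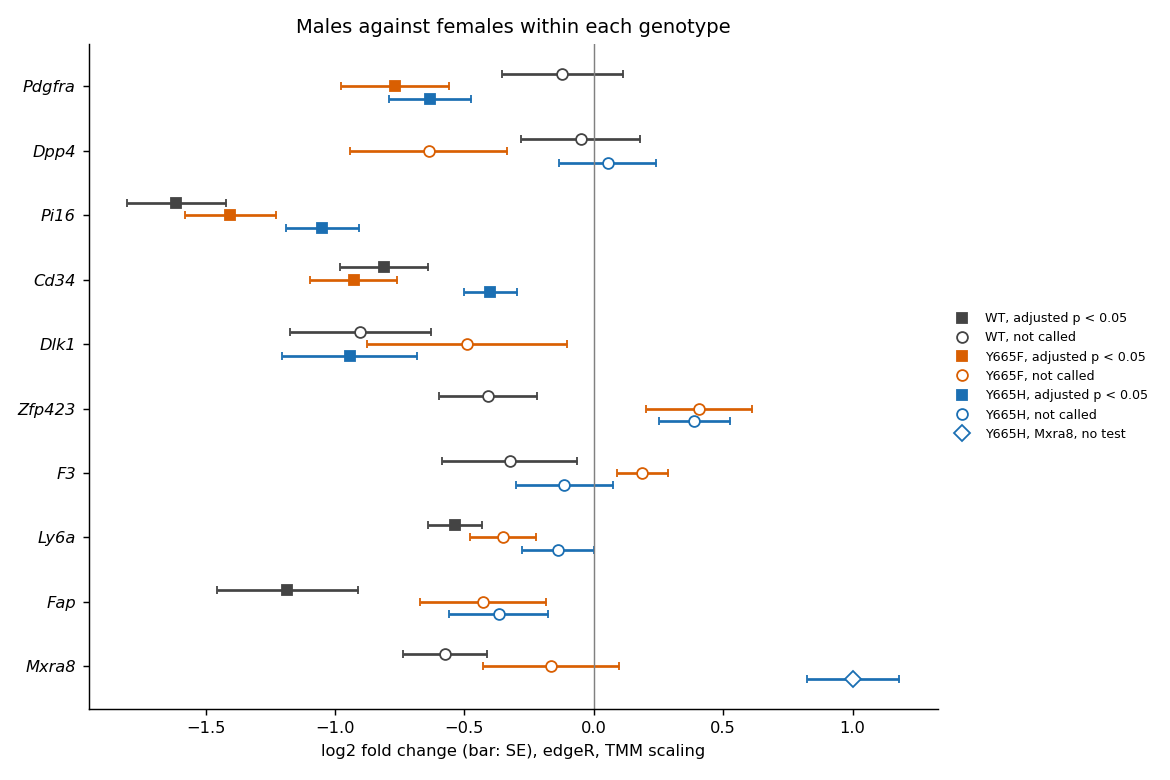
Log2 fold change of males against females for each member in each genotype, with the SE as a bar. Squares mark an edgeR adjusted p under 0.05 and open circles one that was not. An open diamond marks Mxra8 in Y665H, for which no test is given. Pi16 and Cd34 are squares left of 0 in all 3 genotypes, and no square lies right of 0.

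The other pan-fibroblast genes were mostly lower in males. Of the 19 pan-fibroblast genes that are not members, 12 were called in WT, all lower in males, and the list's median log2 fold change was -0.99 beside 0.042 over all genes tested. In Y665F 6 were lower and 2 higher (median -0.61, all genes 0.00122), and in Y665H 7 were lower and 2 higher (median -0.39, all genes 0.017). For this list and those below, the share of all genes called between the sexes was 13.1% in WT, 15.1% in Y665F and 28.8% in Y665H. Lum, which encodes the collagen-binding proteoglycan lumican, was lower in males by a log2 fold change of -1.96 (SE 0.26, adjusted p = 0.00632) in WT, -2.65 (SE 0.30, adjusted p = 0.00376) in Y665F and -1.45 (SE 0.16, adjusted p = 0.000445) in Y665H. Fbln1, encoding the matrix protein fibulin 1, was at -1.59 (SE 0.20, adjusted p = 0.00554) in WT, and Clec3b, encoding tetranectin, at -1.15 (SE 0.17, adjusted p = 0.00839). Dcn, the proteoglycan decorin, was at -1.12 (SE 0.16, adjusted p = 0.00695) in Y665F, and the fibrillar collagen gene Col3a1 at -0.81 (SE 0.15, adjusted p = 0.00451) in Y665H. Pdgfrb, the receptor of mural cells and some progenitors, went the other way in Y665F, at 0.61 (SE 0.10, adjusted p = 0.0118).

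Of the 14 DPP4+ interstitial progenitor genes other than Dpp4 and Pi16, 2 were called in WT and 3 in Y665F, all lower in males. In Y665H 4 were lower and 2 higher. Over all genes 13.1% were called in WT, 15.1% in Y665F and 28.8% in Y665H, so the WT and Y665F counts were near that share. The list medians in the 3 genotypes were -0.64, -0.24 and -0.045. Cd55, which encodes a complement regulator and marks these cells, was at -1.74 (SE 0.27, adjusted p = 0.0109) in WT and -1.20 (SE 0.21, adjusted p = 0.0127) in Y665F. Dpp7, another dipeptidyl peptidase gene, was at -0.80 (SE 0.16, adjusted p = 0.0205) in WT. Opcml, a cell adhesion gene, was at -1.26 (SE 0.15, adjusted p = 0.00455) in Y665F and -1.36 (SE 0.24, adjusted p = 0.00323) in Y665H. Wnt2, a Wnt ligand gene, was at -2.72 (SE 0.61, adjusted p = 0.0253) in Y665F, where the female libraries varied widely (mean 4.93 CPM, SD 4.84). In Y665H Efhd1 was lower in males, at -0.86 (SE 0.13, adjusted p = 0.00180), and Bmp7, a BMP ligand gene, higher, at 1.41 (SE 0.24, adjusted p = 0.00282). All of these adjusted p-values are from edgeR's quasi-likelihood test.

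The committed preadipocyte list gave 3 of 11 genes lower in WT males and none higher, 1 higher in Y665F males and 2 higher in Y665H males. Rbp4, a retinol carrier gene, was at -1.27 (SE 0.29, adjusted p = 0.0290), the chemokine gene Cxcl12 at -0.70 (SE 0.17, adjusted p = 0.0328) and Sparcl1, a matrix protein gene, at -0.91 (SE 0.25, adjusted p = 0.0482) in WT. The BMP regulator gene Bmper was at 1.17 (SE 0.28, adjusted p = 0.0284) in Y665F and 0.91 (SE 0.30, adjusted p = 0.0493) in Y665H. Of the 9 CD142+ genes other than F3, 1 was lower in WT, 2 lower and 1 higher in Y665F, and 1 lower and 5 higher in Y665H. Gdf10, a BMP family ligand gene, was higher in Y665F males, at 1.88 (SE 0.26, adjusted p = 0.00691), and in Y665H males, at 1.35 (SE 0.17, adjusted p = 0.000811). Clec11a, a growth factor gene, was lower in the same males, at -1.50 (SE 0.21, adjusted p = 0.00678) and -1.08 (SE 0.17, adjusted p = 0.00180), so the genes of this list did not move one way.

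The genes next to Dlk1 were lower in males in WT and Y665H, and Dlk1 itself was called in Y665H. Of 11 genes of the Dlk1 locus and other imprinted growth genes, 4 were called in WT, all lower in males, with a list median of -1.15 beside 0.042 over all genes, and 4 in Y665F, also all lower. Meg3 and Rian, non-coding RNAs of the Dlk1 cluster, were at -1.39 (SE 0.22, adjusted p = 0.0110) and -1.74 (SE 0.28, adjusted p = 0.0129) in WT. The neighbour Rtl1, a retrotransposon-derived gene of that cluster, was at -1.57 (SE 0.28, edgeR adjusted p = 0.0160) in WT and -0.70 (SE 0.19, edgeR adjusted p = 0.0242) in Y665H, but at -0.11 (SE 0.28, edgeR adjusted p = 0.819) in Y665F. Begain, on the other side of Dlk1, was at -1.82 (SE 0.33, edgeR adjusted p = 0.0160) in WT, -1.40 (SE 0.19, edgeR adjusted p = 0.00678) in Y665F and -1.82 (SE 0.24, edgeR adjusted p = 0.000931) in Y665H. Grb10, an imprinted growth inhibitor gene at another locus, was at -1.32 (SE 0.18, adjusted p = 0.00756) in WT, -0.67 (SE 0.12, adjusted p = 0.0125) in Y665F and -0.85 (SE 0.13, adjusted p = 0.00176) in Y665H. In Y665F the growth-related non-coding RNA H19 was at -1.41 (SE 0.20, adjusted p = 0.00725). In Y665H 5 of 10 tested genes were lower and 3 higher, among the latter Mest at 2.92 (SE 0.41, adjusted p = 0.00126). Rtl1 has an antisense partner, and the strand setting of the counting is not given in the sources used here.

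Among signalling and regulatory genes, the calls in the mutants were higher in males, while in WT the PDGF list and the commitment regulators had medians of -0.073 and -0.059. Sox9, a transcription factor gene that keeps progenitors from differentiating and is also made by some epithelia, was higher in males in each genotype, at 3.50 (SE 0.54, adjusted p = 0.0107) in WT, 3.12 (SE 0.48, adjusted p = 0.00865) in Y665F and 2.58 (SE 0.21, adjusted p = 0.00018) in Y665H. It was the only 1 of 12 commitment and early adipogenesis regulators called in WT, and in Y665H 5 of the 12 were called, all higher in males. Epithelial marker genes were higher in the same males, with 4 of 9 called in WT and 5 of 9 in Y665H, and the part of epithelial RNA in the Sox9 values was not tested. Of the 6 PDGF ligand and receptor genes other than Pdgfra, none was called by edgeR in WT, 2 were called in Y665F and 4 in Y665H, all higher in males, among them Pdgfb, a ligand made by endothelium, at 0.81 (SE 0.18, adjusted p = 0.0241) and 0.57 (SE 0.15, adjusted p = 0.0177). Pdgfa was at 0.57 (SE 0.12, adjusted p = 0.00650) in Y665H. The coagulation list around F3 had 5 of 6 genes higher in Y665H males, with F2r, a thrombin receptor gene, at 1.05 (SE 0.13, adjusted p = 0.000666) and F10 at 1.44 (SE 0.23, adjusted p = 0.00221). Abcd3, the gene next to F3, was lower in Y665H males, at -0.60 (SE 0.081, adjusted p = 0.00101). All these adjusted p-values are from edgeR.

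Epididymis and muscle RNA moved with sex. Epididymis genes were near 0 in all females and variable in males, and muscle genes were lower in males, with 10 of 15 called in WT and 14 of 15 in Y665H, while none of 13 tested was called in Y665F. Endothelial genes, whose cells also carry CD34, were not called in WT and were higher in males for 5 of 12 genes in Y665F and 4 of 12 in Y665H, the reverse of Cd34. Plxna2, the gene next to Cd34, was also higher in males, at 0.50 (SE 0.090, edgeR adjusted p = 0.0138) in Y665F and 0.67 (SE 0.11, edgeR adjusted p = 0.00275) in Y665H. In WT the adipocyte genes were below 0 in 12 of 12 (median -0.72, 6 with an unadjusted p under 0.05, none called by edgeR). Mesothelial genes were below 0 in 7 of 8 there (median -0.76, 2 called), and 3 of 8 mural genes were called lower. In Y665H 4 of 12 adipocyte genes were called lower and 1 higher, and in Y665F mesothelial genes were below 0 in 8 of 8 (median -0.98, 1 called). With the epididymis level as a covariate, Pi16 in WT was at -1.28 (SE 0.25, edgeR adjusted p = 0.0890), and no member was called in WT, where Cd34 was at -0.46, Ly6a at -0.49 and Fap at -0.63. That level was near 0 in all females and varied only among males, so this covariate overlaps with sex. Folds and calls that changed with it therefore do not measure the part of epididymis RNA. In Y665F and Y665H Pi16 was the only one of the 9 members besides Mxra8 called under that covariate, at -1.37 (edgeR adjusted p = 0.0405) and -0.90 (edgeR adjusted p = 0.0203). The other calls were lost while the folds changed little: Cd34 was at -0.88 (edgeR adjusted p = 0.0703) and Pdgfra at -0.93 (edgeR adjusted p = 0.0914) in Y665F. In Y665H Cd34 was at -0.33 (edgeR adjusted p = 0.187), Pdgfra at -0.72 (edgeR adjusted p = 0.0801) and Dlk1 at -1.0 (edgeR adjusted p = 0.135). The shares of all genes called given above are from fits without the covariate. Those with it are not given here, so the lost calls are not a result about the members. In 5 male libraries the epididymis genes summed to at most 15.1 CPM, and Pi16 was at 29.5 to 70.0 CPM there too, below every female library. Cd34 in those 5 was at 81.4 to 139.6 CPM, against 141.7 to 227 CPM in females. The part of muscle, endothelial, adipocyte, mesothelial and mural RNA in these differences was not tested.

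**Figure D3:**
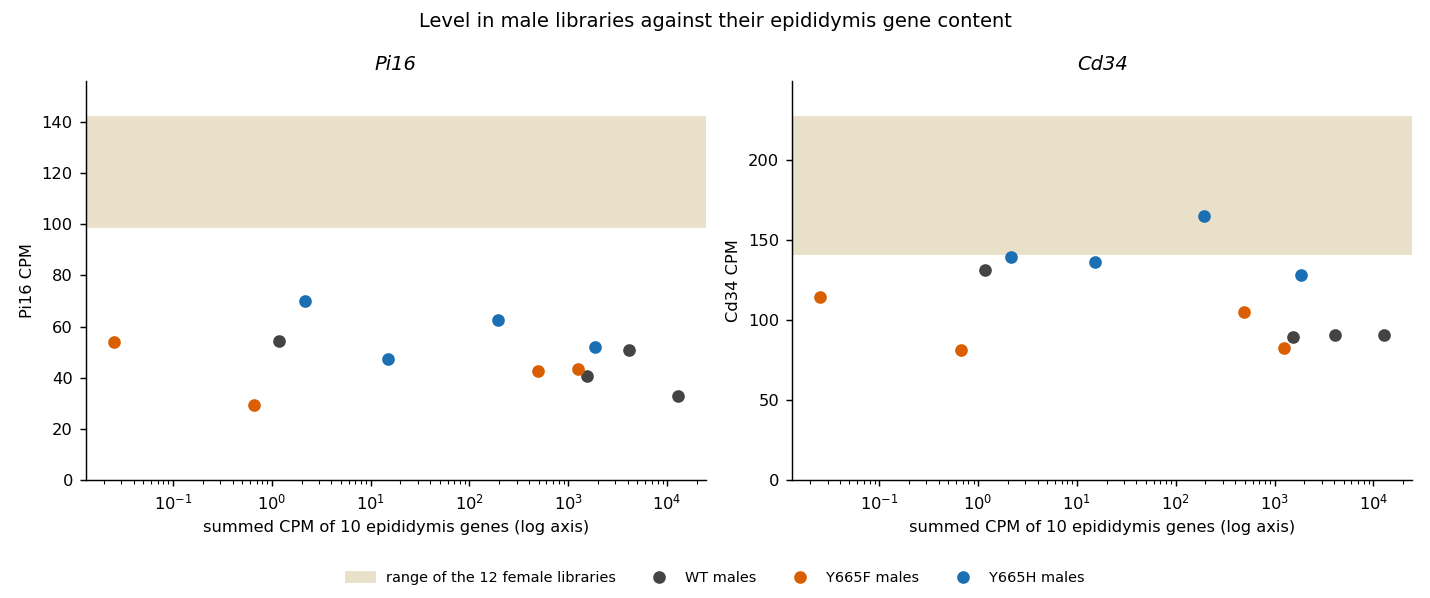
Pi16 and Cd34 CPM of the 12 male libraries against the summed CPM of 10 epididymis genes, on a log axis, with the range of the 12 female libraries as a band. All 12 points lie below the band for Pi16, and 11 of 12 for Cd34.

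The WT calls of Cd34, Ly6a and Fap were each lost on leaving out any of several libraries, so no single library carried them. With 1 library left out, the log2 fold change ran from -1.003 to -0.733 for Cd34. It ran from -0.612 to -0.502 for Ly6a and from -1.50 to -1.07 for Fap. Without WT male 3 the Cd34 call in WT was lost (edgeR adjusted p = 0.0671), as it was without WT female 1, 2, 3 or 4 (0.0746, 0.0772, 0.0608 and 0.0814). The Ly6a call was lost without WT male 3 or without WT female 1, 2 or 4, at edgeR adjusted p-values of 0.0543, 0.0615, 0.0625 and 0.0730. The Fap call held only without WT male 1 and was lost without any of the other 7 libraries, at edgeR adjusted p-values of 0.0552 to 0.0955. Without WT male 2, the library richest in epididymis RNA, Pi16, Cd34 and Ly6a were still called. In Y665F the Pdgfra call was lost without Y665F male 1, 2 or 3 or Y665F female 1, 3 or 4 (edgeR adjusted p of 0.0771 to 0.107). In Y665H, leaving out male 1 or male 3 lost Cd34 and Dlk1, and leaving out female 1 lost Dlk1 (edgeR adjusted p of 0.0516 to 0.0573). With library totals in place of TMM scaling, Pdgfra lost its call in Y665F (edgeR adjusted p = 0.0577) and Y665H (0.0752), and Cd34 lost it in Y665H (0.127). DESeq2 called Dlk1 and Mxra8 in WT as well, with adjusted p-values of 0.0148 and 0.00812. The Pi16 calls held without each library in turn in all 3 genotypes.

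Mxra8, which encodes a membrane protein of fibroblasts that also serves as an entry receptor for arthritogenic alphaviruses, had the most divergent group. It lies at chr4:155839680-155844088 on the plus strand of mm10. In females it was at 142, 121, 119 and 139 CPM in WT, 73.4, 124, 146 and 111 in Y665F and 51.3, 56.4, 55.6 and 41.8 in Y665H. In males it was at 125, 83.6, 90.5 and 87.0 CPM in WT, 149.8, 90.8, 80.2 and 76.8 in Y665F and 83.2, 99.2, 143 and 133 in Y665H. The 4 Y665H female libraries lay between 41.8 and 56.4 CPM, and the other 20 libraries, Y665H males included, between 73.4 and 149.8 CPM.

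The 250 bases before the Mxra8 start are shown because this member stood furthest apart in 1 group, with the single TTCNNNNGAA match in capitals (chr4:155839430-155839679, plus strand, RefSeq on GRCm38.p6, 5′ to 3′).
Mxra8: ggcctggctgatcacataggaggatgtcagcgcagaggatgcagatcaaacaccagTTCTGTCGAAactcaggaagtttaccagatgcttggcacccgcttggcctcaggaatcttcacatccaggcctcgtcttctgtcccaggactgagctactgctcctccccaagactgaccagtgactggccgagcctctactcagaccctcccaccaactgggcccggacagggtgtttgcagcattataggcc
The match began at position -194 from the start site. It was the one such match among the 8 members with a window, and 5.85% of all RefSeq windows of this length held one. It is a description of letters, and no binding was measured here.

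The log2 difference of Mxra8 in Y665H females was -1.33 (SE 0.11) from WT females, -1.0 (SE 0.19) from Y665F females and, with the sign turned to males against females, 1.00 (SE 0.18) within Y665H. These share the Y665H female libraries on which Mxra8 had been selected, so no test is given for them. In contrasts without those libraries Mxra8 was called in none: its log2 difference was -0.57 (SE 0.16) for WT males against WT females (edgeR adjusted p = 0.0525), and it ranged from -0.33 to 0.25 for Y665F against WT females, Y665F males against Y665F females, and the 3 contrasts among males. Neither of its neighbours on chromosome 4, Aurkaip1 and Dvl1, was called in the contrasts of Y665H females with WT or Y665F females. Dvl1 was higher in Y665F males than in Y665F females, at 0.48 (SE 0.077, edgeR adjusted p = 0.0100). The 19 pan-fibroblast genes that are not members ran from -0.81 to 0.28 in Y665H against WT females, with a median log2 fold change of -0.27 beside -0.00459 over all genes tested. Of these, 7 had an unadjusted p under 0.05, and the smallest edgeR adjusted p was 0.0541. Against Y665F females the same genes ran from -0.71 to 0.88, so Mxra8 lay below all of them in both contrasts. Mxra8 had been selected for its low level in the Y665H female libraries, so this rank is a description.

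**Figure D4:**
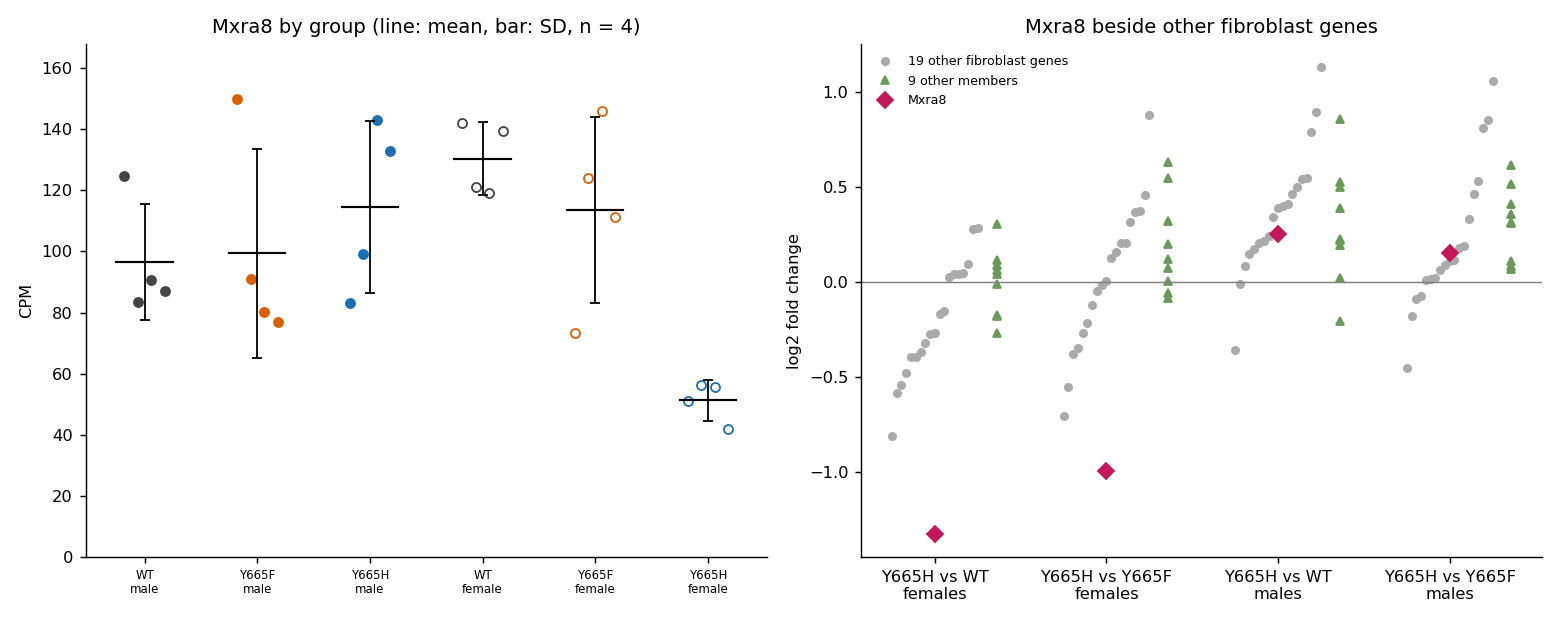
Left, Mxra8 CPM by library and group with the mean and SD of 4 libraries; right, log2 fold changes of Mxra8, of 19 other pan-fibroblast genes and of the 9 other members in 4 contrasts with Y665H. Mxra8 lies below all the other points in both contrasts among females, which hold the libraries it was selected on, and inside their range in both among males.

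In Y665H against WT females, edgeR and DESeq2 called 0 of the 9 members other than Mxra8, beside 3.34% of all 15469 genes called by edgeR. In the contrasts with WT, in Y665H against Y665F males and in the interactions, DESeq2 called more of all genes than edgeR did. Its totals are in the last paragraph. Zfp423 was the one of the 9 with an unadjusted p under 0.05, at -0.27 (SE 0.12, edgeR adjusted p = 0.208). The remaining 8 ran from -0.18 to 0.31 on the log2 scale, with adjusted p-values of 0.304 to 0.980. Among related genes, Pdgfa, a ligand of PDGFRA, was lower in Y665H females, at -0.56 (SE 0.10, adjusted p = 0.0306). Bgn, the proteoglycan biglycan and a CD142+ cell gene, was at -0.86 (SE 0.20, adjusted p = 0.0492), and the imprinted gene Plagl1 at -0.68 (SE 0.14, adjusted p = 0.0370), all by edgeR. Y665F and Y665H were each compared with the same WT libraries, so these comparisons are not independent.

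In Y665F against WT females, edgeR called none of the 10 members, against 3.33% of all genes, and 3 members and 4107 of 15642 genes had an unadjusted p under 0.05. F3, which starts the extrinsic clotting pathway and marks CD142+ cells, was at 55.6, 33.8, 50.2 and 34.3 CPM in WT females and 31.5, 29.4, 29.5 and 31.1 in Y665F females. The Y665F females were all below the WT females and close together, while 2 WT females stood near 34 CPM and 2 above 50 CPM. Its log2 fold change was -0.65 (SE 0.16, edgeR adjusted p = 0.0666), and DESeq2 called it, as the only member, with an adjusted p of 0.00487. Pi16 was at -0.25 (SE 0.10, edgeR adjusted p = 0.179) and Dlk1 at -0.48 (SE 0.21, edgeR adjusted p = 0.183). Plxna2, the gene next to Cd34, was lower in both mutants, at -0.35 (SE 0.070, edgeR adjusted p = 0.0399) in Y665F and -0.55 (SE 0.096, edgeR adjusted p = 0.0269) in Y665H females. The other 7 members ran from -0.39 to 0.17, with edgeR adjusted p-values of 0.209 to 0.738.

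Some related genes were called in Y665F females, all lower. Twist2, a transcription factor gene of mesenchymal cells, was at -0.86 (SE 0.15, adjusted p = 0.0275) and Pdgfrb at -0.54 (SE 0.11, adjusted p = 0.0417), 2 of 19 pan-fibroblast genes, with a list median of -0.35 beside 0.0202 over all genes. Gdf10 was at -1.34 (SE 0.24, adjusted p = 0.0280), the only one called of 9 CD142+ genes. Zfp521, a relative of Zfp423 that opposes adipogenic commitment, was at -0.39 (SE 0.073, adjusted p = 0.0320). These adjusted p-values are from edgeR. T and NK cell genes were higher in the same libraries, with 11 of 13 called and a summed level of 42.9 to 63.7 CPM against 12.3 to 18.7 in WT females, and the muscle genes had a median log2 fold change of -3.57 with 0 of 14 called by edgeR. Endothelial genes were below 0 in 11 of 12 (median -0.42, 1 called), adipocyte genes in 12 of 12 (median -0.41) and mural genes, whose cells carry PDGFRB, in 6 of 8 (median -0.35). The part of these in the differences was not tested.

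Between the 2 mutants in females, F3 was the one called of the 9 members other than Mxra8, against 17.4% of all genes. F3 was at 30.2, 35.8, 61.4 and 43.8 CPM in Y665H females, and the lowest of these lay inside the Y665F range. Its log2 fold change of Y665H against Y665F was 0.63 (SE 0.18) with an edgeR adjusted p of 0.0477. That call was lost in 10 of 14 alternative fits, among them without Y665F female 1, 2, 3 or 4 or Y665H female 4 (edgeR adjusted p of 0.0787 to 0.0959). With the skeletal muscle level as a covariate, F3 was at 0.20 (edgeR adjusted p = 0.308), and 8 of 14 muscle genes were called higher in Y665H females. Dlk1 was at 0.55 (SE 0.23, edgeR adjusted p = 0.141), and the other 7 besides Mxra8 ran from -0.086 to 0.32.

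Around F3, the coagulation genes F7 and F10, which encode the factors that tissue factor binds and activates, were lower in Y665H than in Y665F females, at -2.05 (SE 0.31, adjusted p = 0.00458) and -1.72 (SE 0.31, adjusted p = 0.00829). Its neighbour Abcd3, a peroxisomal transporter gene, was higher, at 0.64 (SE 0.15, edgeR adjusted p = 0.0243). In the CD142+ list Gdf10 was higher, at 0.97 (SE 0.22, adjusted p = 0.0188), and Abcg1, a sterol transporter gene that macrophages also express, lower, at -1.22 (SE 0.19, adjusted p = 0.00470). Immune cell markers were lower in Y665H females as well, with 7 of 12 macrophage, 8 of 13 T and NK cell and 7 of 10 B cell genes called. Their part in these differences was not tested. Pdgfc, a PDGF ligand gene, was at -0.45 (SE 0.076, adjusted p = 0.00662) and Pdgfrb at 0.37 (SE 0.091, adjusted p = 0.0277). Twist2 was at 0.88 (SE 0.21, adjusted p = 0.0226), Anxa3 of the DPP4+ list at -0.49 (SE 0.13, adjusted p = 0.0338), and Tgfbi and Icam1 of the committed preadipocyte list at -0.55 (SE 0.11, adjusted p = 0.0127) and -0.40 (SE 0.094, adjusted p = 0.0226). Bmp4, a ligand that commits progenitors to fat, was at -0.94 (SE 0.18, adjusted p = 0.0100) and Sox9 at 0.81 (SE 0.20, adjusted p = 0.0274). H19 was at 2.44 (SE 0.68, adjusted p = 0.0406), with Y665H female libraries that varied widely (mean 16.1 CPM, SD 17.3). The adjusted p-values are from edgeR.

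Among males edgeR called no member in any contrast of genotypes. In Y665F against WT males 0% of 16240 genes were called by edgeR, with 2772 genes and 0 members at an unadjusted p under 0.05. DESeq2, which called more of all genes there, called 0 members. The 10 members ran from -0.53 to 0.49 on the log2 scale with edgeR adjusted p-values of 0.315 to 0.964. In Y665H against WT males 0% of 16406 genes were called by edgeR, with 1874 at an unadjusted p under 0.05. DESeq2, which called more of all genes there too, again called 0 members. Cd34 was at 0.50 (SE 0.17), Zfp423 at 0.53 (SE 0.20) and Fap at 0.86 (SE 0.29), each with an unadjusted p under 0.05 and an edgeR adjusted p of 0.402. For Fap, 3 of the 4 WT males, at 3.84 to 4.26 CPM, lay below all Y665H males, and WT male 1 lay inside their range. The other 7 ran from -0.20 to 0.39.

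In Y665H against Y665F males, edgeR called 0 of 10 members against 1.03% of all genes, and 3 members and 2879 genes had an unadjusted p under 0.05. All 10 log2 fold changes were above 0, from 0.069 to 0.62, with a median of 0.31 beside -0.0172 over all genes, of which 47.8% were above 0. Dpp4 was at 44.4, 41.7, 30.8 and 52.1 CPM in Y665F males and 53.5, 65.7, 64.2 and 83.5 in Y665H males, with no overlap. Its log2 fold change was 0.62 (SE 0.16, edgeR adjusted p = 0.113), and that of Cd34, whose libraries did not overlap either, was 0.51 (SE 0.14, edgeR adjusted p = 0.128). DESeq2 called these 2, with adjusted p-values of 0.00849 and 0.0211. F3 was at 0.31 (SE 0.12, edgeR adjusted p = 0.215). Of the related genes, Lum was higher in Y665H males, at 1.06 (SE 0.20, adjusted p = 0.0491), and Vit, a matrix gene of the CD142+ list, at 0.76 (SE 0.14, adjusted p = 0.0488), by edgeR. T and NK cell genes were lower, with 3 of 13 called. Adipocyte genes were above 0 in 11 of 12 (median 0.25) and mesothelial genes in 7 of 8 (median 0.60). The part of these in the members' values was not tested.

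**Figure D5:**
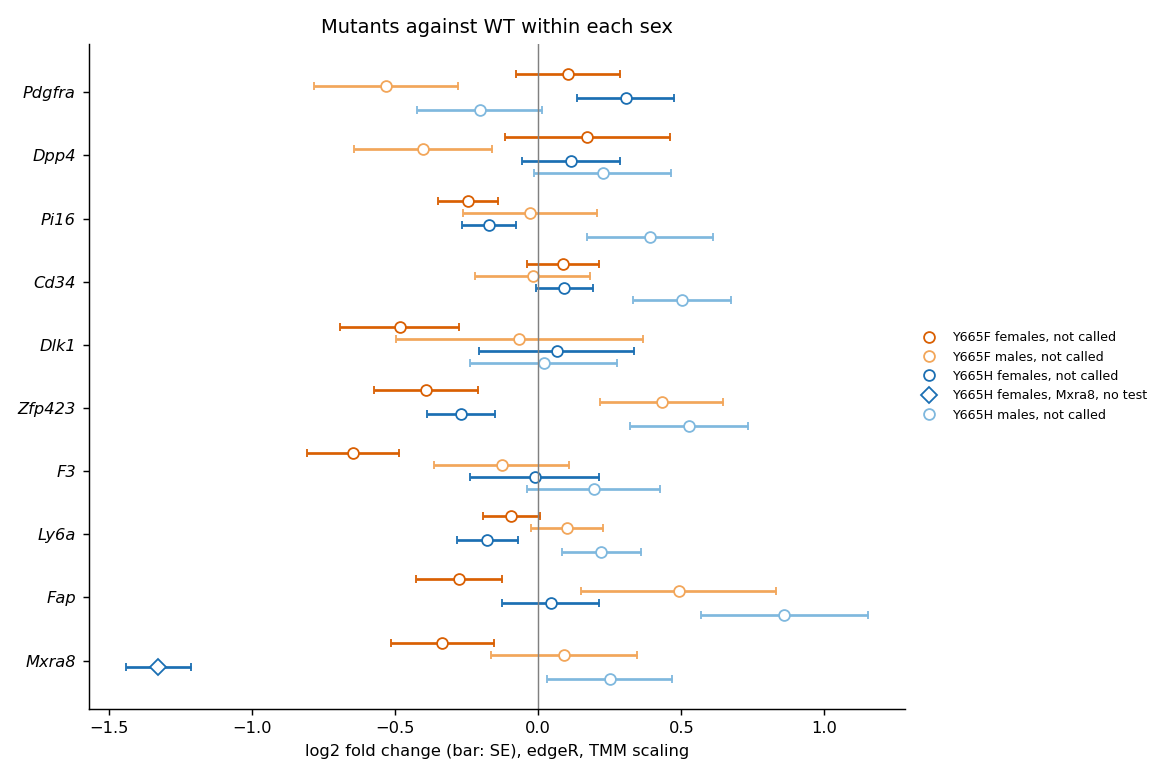
Log2 fold change of each mutant against WT within each sex for the 10 members, with the SE as a bar. Open circles mark an edgeR adjusted p not under 0.05. An open diamond marks Mxra8 in Y665H females, for which no test is given. The diamond lies furthest from 0, at -1.33, and no member has a square, the mark of a call.

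A difference in a mutation's effect between the sexes was tested as an interaction, its log2 change in males minus its log2 change in females. For Y665F, edgeR called no member, and 0% of 16732 genes, of which 3645 had an unadjusted p under 0.05, and DESeq2 called 0 members. Zfp423 had an interaction of 0.82 (SE 0.30, edgeR adjusted p = 0.159), and the other 9 ran from -0.64 to 0.76. Without WT male 1, edgeR called Zfp423 and Fap, Zfp423 at an adjusted p of 0.0466. For Y665H, edgeR called 0 of the 9 members other than Mxra8, against 0.0119% of all genes, of which 3079 had an unadjusted p under 0.05. Mxra8 had an interaction of 1.57 (SE 0.25), given with no test since it contains the Y665H female libraries. Zfp423 was at 0.79 (SE 0.25), Fap at 0.81 (SE 0.34), Pi16 at 0.56 (SE 0.24) and Ly6a at 0.40 (SE 0.17), with edgeR adjusted p-values of 0.163 to 0.252, and the other 5 ran from -0.51 to 0.41. For Y665H, DESeq2 called Zfp423 among these 9, at an adjusted p of 0.04999, and edgeR called Cd34, Zfp423 and Fap without WT male 1.

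The members did not vary as 1 block. After the group means were removed, the correlation of log2(CPM + 1) over the 24 libraries was above 0 for 25 of the 45 pairs of members and above 0.5 for 7. It was highest for Cd34 with Ly6a at 0.74, followed by Pi16 with Cd34 at 0.64 and Cd34 with Fap at 0.63. Pdgfra with Zfp423 stood at the other end, at -0.72, the only pair under -0.5. Dpp4 and Pi16, which mark the same interstitial cells, had 0.0718. Dpp4 and Fap, close together on chromosome 2 with only the glucagon gene Gcg between them in the annotation, had 0.15. The points share libraries, depth and tissue make-up, and these values are descriptions.

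Across the same 24 libraries, group differences included, 14828 genes averaging 1 CPM or more were compared with each member by the Pearson correlation of log2(CPM + 1). The closest to Pi16 was Antxr1, an anthrax toxin receptor gene of stromal cells, at a Pearson correlation of 0.95, then AW551984 at 0.95. Kdelc2 was nearest to both Cd34, at 0.94, and Ly6a, at 0.87, followed by Dsel at 0.94 and Fkbp14 at 0.85. Zfp423 was nearest to Ehd2, a gene of caveolae, and Aoc3, an amine oxidase gene, at 0.94 and 0.94, 2 genes with means of 981 and 1552 CPM that mature adipocytes express strongly. Fap was nearest to Pon3 and Sgcb, both at 0.92, and Pdgfra to Zfp317 and Fam198a, both at 0.86. Klhl2 was among the genes closest to F3, at 0.82. Dlk1 was nearest to Efnb3 at 0.83 and Net1 at 0.80, and Dpp4 to Cxadr at 0.77 and Cpq at 0.74. Mxra8 was nearest to Rap1gap2 at 0.75 and Actb at 0.73, values close to those of Dpp4.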

How the data were processed

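Adipose total RNA was measured in 24 libraries. The authors depleted ribosomal RNA and made stranded paired-end libraries, per the labels' protocols. They deposited whole-number read counts per gene symbol, not normalized, with 1 file a library. Per the submitters' processing notes, the tools were FastQC 0.11.9, Trimmomatic 0.36, STAR, SAMtools 1.9, Picard 2.9.2 and HTSeq 0.9.1 on build mm10. The annotation and the strand setting of the counting are not given in the sources used here. Samples were grouped by title. The 5 entries that name no gene (24.8 to 39.7% of counts) did not enter library sizes or tests.

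CPM were computed from the gene counts, with TMM scaling added for correlations between genes only. Depth was 20982647 to 41345247 gene counts, and Rn45s held 3.27 to 15.0% of them. Within groups, no pair of the 36 was alike within sampling noise (chi-square per degree of freedom of at least 16.4), so each library counted as 1 sample. Differences were tested in R 4.3.3 with edgeR 4.0.16 (quasi-likelihood; limma 3.58.1 was loaded with it), using TMM scaling, filterByExpr and Benjamini-Hochberg adjustment over all tested genes. Each contrast was fitted on its 8 libraries and each interaction on 16. The script was tested on simulated data. Alternatives were DESeq2 1.42.0, scaling by library totals, no filter, 1 fit over all 24 libraries, the replicate number as a block, each library left out, and an epididymis or skeletal muscle covariate. The 2 comparisons of the sexes within Y665F and within Y665H were chosen after seeing the data.

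The members, the pathway lists and the marker lists were chosen with earlier results of these data known. The text names all 10 members in every library, their fold changes with SE and adjusted p where the unadjusted p was under 0.05, at most 3 called genes per pathway list and contrast, the called neighbours of a member, and the 2 genes most alike to each member, of which 1 is not reported here. Genes were placed by symbol on GENCODE M21 (GRCm38). Promoters came from RefSeq (GRCm38.p6), 250 bases before the start.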

Additional observations from a re-analysis of the deposited data

Results flagged for a closer look

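In groups of 4, a library was picked out where its gap to the nearest other exceeded the Dixon limit. Chance gives this in about 1 in 20 groups, and 3 of the 60 groups of a member gave it. All 3 were in WT male 1, which was far above the other WT males: Cd34 at 131.5 CPM, Fap at 7.43 CPM and Mxra8 at 124.5 CPM. The same library held 1.18 CPM of epididymis genes against 1529 to 12895 CPM in the other 3 WT males. The part of that in the values was not tested.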

How the results depend on the processing

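Refits were tallied for the 36 pairs of a member and a comparison that had an unadjusted p under 0.05 in the fit used above. Over these, 552 refits gave 474 fold changes on the same side of the threshold, called in both fits or in neither. Another 57 lost a call, 21 gained one and 0 changed sign. Since the pairs were chosen by a low p, changes of sign were unlikely beforehand, and their absence says little. Among the 36 are the Mxra8 pairs that rest on the Y665H female libraries, on which it was selected, and those are descriptions. The counts of members called moved as follows, and the cause was not tested. In contrasts with Y665H females and in the Y665H interaction they include Mxra8, which was selected on those libraries, and are descriptions. With DESeq2, the count rose from 0 to 1 in Y665F against WT females, from 0 to 2 in Y665H against Y665F males and from 0 to 2 in the Y665H interaction. Calls over all genes rose with DESeq2 in the same comparisons, as listed in the last paragraph. For the other refits the share of all genes called is not given here, so those counts are not results about the members. With library totals, and with all 24 libraries in the fit, the Y665H interaction gave 1. In Y665H against Y665F females the count of 2 fell to 1 with library totals, with no filter on low counts and with all 24 libraries in the fit, and to 0 with the skeletal muscle covariate. With the epididymis covariate, which overlaps with sex, the count fell from 4 to 0 in WT males against females, from 3 to 1 in Y665F and from 5 to 1 in Y665H. Leaving out 1 library gave 1 to 2 in Y665H against Y665F females, 1 to 6 in WT males against females (6 without WT male 1), 2 to 3 in Y665F, 3 to 5 in Y665H, 0 to 2 in the Y665F interaction and 0 to 4 in the Y665H interaction.

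The counts in Y665F against WT males and in Y665H against WT males were 0 in the 14 alternatives run for each. In Y665H against WT females the count was 1 in all 14, and that member was Mxra8. It was selected on those libraries, so this count is a description and says nothing on how firm the call is.

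The labels number the libraries, and no pairing by number was seen. Correlations of same-numbered libraries ran from -0.39 to 0.73, and in 0 of 9 comparisons was each library best matched by its own number. With 4 libraries a group that differ in RNA of neighbouring tissues, this check cannot exclude a pairing. With the replicate block, the count of members called was 1 in WT males against females and 1 in Y665H against Y665F females, and no other count moved by over 1.5 times.

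Over all genes, DESeq2 called more than edgeR did: 2047 against 521 in Y665F and 1760 against 516 in Y665H against WT females, 1141 and 119 against 0 in males, 1097 against 164 in Y665H against Y665F males, 4549 against 2079 for WT sex, 4254 against 2361 for Y665F sex, and 1184 against 0 and 715 against 2 for the interactions. Library totals moved the median log2 fold change over all genes from 0.020 to 0.15 in Y665F against WT females, from -0.031 to -0.18 in Y665H against Y665F females, from 0.042 to 0.22 for WT sex, from 0.017 to 0.17 for Y665H sex and from -0.063 to -0.25 in the Y665F interaction, so fold changes are relative to TMM scaling. Depth limits Dlk1 most, with as few as 26 counts in a library.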
